A study of Mus musculus with 16 samples.

Results

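A group of 10 genes that mark astrocytes and their cerebellar form, the Bergmann glia, were followed through brain RNA-seq of mice with and without Upf3b. Gdf10, Hopx and Slc1a3 were taken as Bergmann glia genes, and Slc1a2, Aqp4, Gfap, Gja1, Aldh1l1, Aldoc and S100b as general astrocyte genes. They were 10 of the 55266 genes in the count matrices and were taken by name as known markers of the cell types, with earlier results of these data known. Their 61 transcripts, of 142435 in each matrix, were read one by one and summed per gene. Levels are given as CPM, the counts of a gene scaled to the total of its library.

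Astrocytes take up glutamate and potassium from around synapses, carry water across the border of brain and blood, and share small molecules with each other through gap junctions. In the cerebellum a specialised astrocyte, the Bergmann glial cell, sends radial fibres along the dendrites of Purkinje cells, and its membrane is rich in the glutamate transporter encoded by Slc1a3. The genes are not exclusive marks of these cells: Hopx and Slc1a3 are also expressed by cortical astrocytes, Aldoc by a subset of Purkinje cells and S100b by oligodendrocyte lineage cells.

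Frontal cortex and cerebellum came from adult Upf3b-KO mice, which are null for Upf3b, and from littermate Ctrl mice, and the study compared the genotypes within each region. The UPF3B protein takes part in nonsense-mediated decay (NMD), which degrades RNAs such as those with an early stop codon. Each of the 4 groups had 4 libraries, no treatment is named, and neither the sex of the mice nor how the null allele was made is stated in the sources used here. No promoter or Cre driver that would restrict the loss to a cell type is named, and the labels do not say which libraries came from the same mouse. Both regions were described as taken from 4 mice per genotype, so libraries of the 2 regions may share mice, whereas the tests between regions and of the interaction treat all libraries as independent.

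The 15 libraries used held 27660078 to 35238677 counts, whereas Upf3b-KO library 1 of the cerebellum held 64981 and was left out for low depth. In that library 3 counts already correspond to 46.2 CPM. Upf3b lay between 14.2 and 23.6 CPM in the 8 Ctrl libraries and between 0.229 and 0.965 CPM in the 7 deep Upf3b-KO libraries, as labelled. Both regions carried their defining neuronal markers: in Ctrl, the 8 Purkinje cell genes listed summed to 13739.8 to 13877 CPM in cerebellum and 773 to 786 CPM in frontal cortex, and the 6 cortical excitatory neuron genes to 540.1 to 565 and 1533 to 1596 CPM. The Upf3b-KO libraries of both regions also held markers that their Ctrl counterparts nearly lacked. The 6 choroid plexus genes summed to 17.4 to 18.2 CPM in Ctrl and 2139 to 2190.2 CPM in Upf3b-KO frontal cortex, and to 23.2 to 26.5 and 1374 to 1394 CPM in cerebellum. Hoxb5, a patterning gene of the hindbrain and spinal cord, had 0 to 0.0723 CPM in Ctrl cerebellum and 25.7 to 29.9 CPM in Upf3b-KO cerebellum. These markers moved with genotype in every deep library, and their part in the results that follow was not tested.

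The members already differed between the regions of Ctrl mice. Gdf10, which encodes a secreted ligand of the TGF-β family, lay on chr14:33645273-33659940 (plus strand, GRCm39) and of the 10 was the most restricted to cerebellum, with 13.2, 13.6, 14.5 and 12.7 CPM in the 4 Ctrl libraries of frontal cortex and 268, 257, 261 and 264 CPM in those of cerebellum. The ranges were far apart, and the level in cerebellum was 18.7-fold higher, a log2 difference of 4.22 (SE 0.032) whose adjusted p was 2.31e-27 in the quasi-likelihood test of edgeR (Benjamini-Hochberg adjustment over all genes, used throughout). Hopx (chr5:77234831-77263022, minus strand), which encodes a small homeodomain protein that does not bind DNA by itself, and Slc1a3 (chr15:8663604-8741595, minus strand) were higher in cerebellum by 1.83-fold and 1.82-fold. Of the general astrocyte genes, S100b (chr10:76085090-76097159, plus strand; a calcium-binding protein), Aqp4 (chr18:15522451-15544039, minus strand; the main water channel of astrocytes) and Aldoc (chr11:78213619-78218889, plus strand; the glycolytic enzyme aldolase C) were 4.75-fold, 2.27-fold and 1.46-fold higher in cerebellum. Slc1a2 (chr2:102488574-102621129, plus strand), the main glutamate transporter of forebrain astrocytes, went the other way, from 1367, 1333, 1338 and 1351 CPM in frontal cortex to 323, 324, 327 and 318 CPM in cerebellum, 4.34-fold lower. Gfap (chr11:102778159-102791738, minus strand; an intermediate filament), Gja1 (chr10:56253241-56278609, plus strand; the gap junction protein connexin 43) and Aldh1l1 (chr6:90463409-90577185, plus strand; an enzyme of folate metabolism) were 2.50-fold, 1.21-fold and 1.19-fold lower in cerebellum. All 10 differences passed an adjusted p under 0.05 in edgeR's test, but so did 76.5% of the genes tested, and 5 of the 10 also exceeded a 2-fold change with an adjusted p under 0.01, the limits the study set for genes, as did 25.1% of the genes tested. Because these are bulk samples, fewer cells of a type and less RNA per cell cannot be told apart here or below.

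To compare the genes with each other, counts were divided by transcript length and scaled to the same total (TPM). In Ctrl cerebellum Aldoc was highest at 3249 ± 36.9 TPM (SD, n = 4), followed by Slc1a3 at 1669 ± 17.1 TPM and S100b at 819.6 ± 10.9 TPM. Hopx, Aqp4, Gja1, Gfap and Gdf10 followed in that order, from 581 down to 121 TPM, and the lowest levels were those of Slc1a2 at 69.3 ± 1.3 and Aldh1l1 at 65.7 ± 2.1 TPM, whose ranges over libraries overlapped. Each other pair of neighbours in this order had separate ranges. In Ctrl frontal cortex Aldoc and Slc1a3 again led, at 2010.4 and 844 TPM, and Gdf10 was last at 5.95 ± 0.32 TPM. Slc1a2 stood at 277 TPM there, next to Hopx at 291 TPM. In Upf3b-KO cerebellum Gdf10 was last of the 10 at 43.1 TPM, below Aldh1l1 and Slc1a2 at 56.7 and 90.0 TPM, and no neighbouring ranges overlapped. In Upf3b-KO frontal cortex Hopx stood at 160.4 TPM, below Slc1a2 and S100b at 218 and 178 TPM, and the ranges of Gfap and Gja1 overlapped.

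In cerebellum all 3 Bergmann glia genes were lower in Upf3b-KO mice, by 1.77-fold to 2.79-fold. Gdf10 had 268, 257, 261 and 264 CPM in the 4 Ctrl libraries and 98.6, 98.8 and 94.5 CPM in the 3 deep Upf3b-KO libraries. The highest Upf3b-KO value was well under the lowest Ctrl value, and the mean fell from 262 ± 4.8 (SD, n = 4) to 97.3 ± 2.5 CPM (SD, n = 3). In the quasi-likelihood test of edgeR the log2 fold change was −1.48 (SE 0.024) and the adjusted p 6.39e-20. Slc1a3, the glutamate transporter GLAST, had 2739, 2754, 2776 and 2752 CPM in Ctrl and 1302, 1303 and 1285 CPM in Upf3b-KO. Every Upf3b-KO library thus lay under every Ctrl library, for a log2 fold change of −1.14 (SE 0.011) and an adjusted p of 2.84e-23 in the same edgeR test. For Hopx the values were 263, 267, 256 and 269 CPM in Ctrl and 152, 158 and 153 CPM in Upf3b-KO, again without overlap, for a log2 fold change of −0.82 (SE 0.023) and an adjusted p of 2.17e-16 in edgeR's fit. The shallow library, with 9, 82 and 7 counts for Gdf10, Slc1a3 and Hopx, read 139, 1262 and 108 CPM, under the Ctrl range in each case. Over all 17785 genes tested in cerebellum, 31.3% were called lower and 33.1% higher, while 2.86% were lower at the limits of the study (adjusted p under 0.01 and a change over 2-fold), which Gdf10 and Slc1a3 passed and Hopx did not.

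The general astrocyte genes did not move as one in cerebellum: 3 were higher and 4 lower in Upf3b-KO, and none reached a 2-fold change. The other glutamate transporter, Slc1a2, rose from 323, 324, 327 and 318 CPM in Ctrl to 427, 432 and 428 CPM in Upf3b-KO, a log2 fold change of 0.36 (SE 0.016). The 2 transporters of the same substrate therefore changed in opposite directions in the same libraries. Gfap, the filament protein often used to mark astrocytes, had 168, 168, 166 and 164 CPM in Ctrl and 230.0, 229 and 231 CPM in Upf3b-KO, with no overlap and a log2 fold change of 0.41 (SE 0.02). Aldoc had 2314, 2280.2, 2229.8 and 2269.9 CPM in Ctrl and 2654, 2688 and 2651 CPM in Upf3b-KO, a smaller rise of 0.18 (SE 0.011) on the log2 scale that was nonetheless wider than the spread between libraries. S100b fell from 556, 551, 534 and 545 to 476, 490.3 and 484 CPM, a log2 fold change of −0.23 (SE 0.016). Aldh1l1 and Aqp4 were also lower, with log2 fold changes of −0.22 (SE 0.03) and −0.13 (SE 0.015), and their Upf3b-KO ranges of 94.0 to 98.2 and 612 to 618 CPM lay just under the Ctrl ranges of 105 to 114 and 636 to 658 CPM. Gja1 was the member with the smallest change, −0.081 (SE 0.016) on the log2 scale, with ranges of 512 to 531 CPM in Ctrl and 505 to 512 CPM in Upf3b-KO that overlapped. Adjusted p-values in the quasi-likelihood test of edgeR ran from 3.63e-13 for Slc1a2 to 0.000188 for Gja1, with 8.95e-13 for Gfap and 7.24e-11 for Aldoc. The call of Gja1 was lost with library totals in place of TMM scaling, where its adjusted p was 0.096 in edgeR's test. Genotypes did not overlap for 9 of the 10 members, as for 63.4% of the genes tested.

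**Figure D1:**
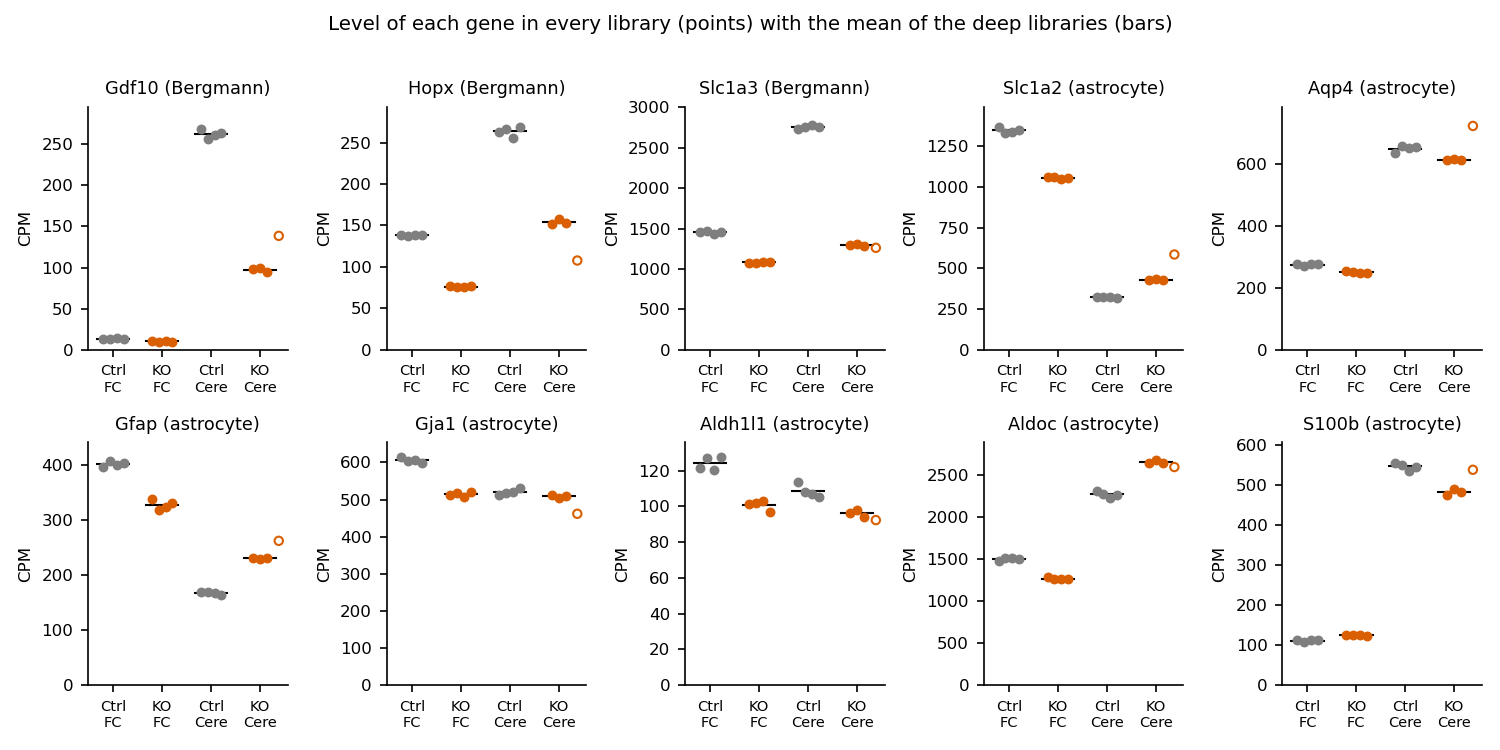
Level of each gene in CPM (vertical axes, from 0) in the 4 Ctrl and 4 Upf3b-KO libraries of frontal cortex (FC) and in the 4 Ctrl and 3 deep Upf3b-KO libraries of cerebellum (Cere); bars are group means and the open circle is the shallow library. Gdf10, Slc1a3 and Hopx fell in Upf3b-KO cerebellum to 97.3, 1297 and 154 CPM, while Slc1a2, Gfap and Aldoc rose there.

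In frontal cortex, a region with no Bergmann glia, 9 of the 10 genes were lower in Upf3b-KO and S100b was higher. Hopx changed most, from 138, 138, 138 and 139 CPM in Ctrl to 76.8, 75.3, 75.2 and 76.5 CPM in Upf3b-KO. All 4 Upf3b-KO libraries stood near the same level, and in the quasi-likelihood test of edgeR the log2 fold change was −0.94 (SE 0.023) and the adjusted p 9.54e-19. Slc1a3 had 1459, 1466, 1436 and 1457 CPM in Ctrl and 1076, 1069, 1087 and 1088 CPM in Upf3b-KO, with a log2 fold change of −0.50 (SE 0.011). Slc1a2 had 1367, 1333, 1338 and 1351 CPM in Ctrl and 1062, 1062, 1046 and 1055 CPM in Upf3b-KO, with a log2 fold change of −0.43 (SE 0.011), so in this region both transporters fell. Gdf10 was scarce, with 13.2, 13.6, 14.5 and 12.7 CPM in Ctrl and 10.7, 9.93, 11.01 and 9.90 CPM in Upf3b-KO, and its log2 fold change of −0.46 (SE 0.073) had the widest error of the 10. Gfap fell from 395, 407, 399 and 403 to 337, 317, 322 and 329 CPM and Aldoc from 1476, 1514, 1513 and 1501 to 1284, 1264, 1265 and 1264 CPM, log2 fold changes of −0.37 (SE 0.018) and −0.32 (SE 0.011). Both genes were thus lower here and higher in cerebellum. For Aldh1l1, Gja1 and Aqp4 the log2 fold changes were −0.38 (SE 0.026), −0.31 (SE 0.014) and −0.22 (SE 0.017), with Upf3b-KO means of 101, 515 and 249.8 CPM against Ctrl means of 124, 606 and 275 CPM. S100b had 112, 108, 112 and 112 CPM in Ctrl and 126, 124, 124 and 123 CPM in Upf3b-KO, a log2 fold change of 0.087 (SE 0.023).

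Of the 18218 genes tested in frontal cortex, 25.3% were called lower and 28% higher, and genotypes did not overlap in 48.4%, against 10 of the 10 members. The median log2 fold change was −0.50 over the 3 Bergmann glia genes and −0.32 over the 7 astrocyte genes, beside 0.0037 over all genes tested. In cerebellum the medians were −1.14 and −0.081, beside 0.0077 over all genes. No member passed the limits of the study in frontal cortex, where 1.06% of the genes were lower at those limits. TMM scaling shifted every log2 fold change by −0.0763 in frontal cortex and −0.0504 in cerebellum relative to library totals, a shift close in size to the changes of S100b in frontal cortex and of Gja1 in cerebellum.

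**Figure D2:**
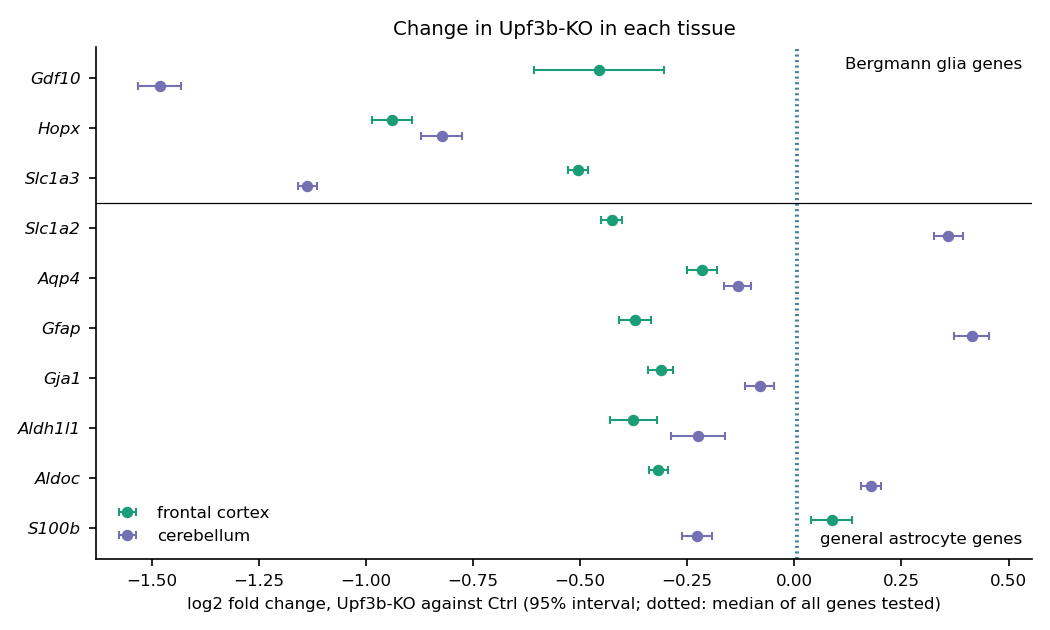
Log2 fold change of each gene in Upf3b-KO against Ctrl (horizontal axis) with its 95% interval, in frontal cortex and cerebellum; dotted lines mark the median of all genes tested in each. The 3 Bergmann glia genes sit left of 0 in both regions, and Slc1a2, Gfap and Aldoc lie on opposite sides of 0 in the 2 regions.

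Whether the effect of genotype differed between the regions was tested as an interaction over the 15 libraries, in which the frontal cortex log2 fold change is taken from that of cerebellum. The effect on Gdf10 was more negative in cerebellum, with a difference of −1.04 (SE 0.058), and likewise that on Slc1a3, with −0.64 (SE 0.016). Hopx did not share this pattern: its fall was slightly smaller in cerebellum, by a log2 difference of 0.11 (SE 0.03). Slc1a2 and Gfap had positive differences of 0.78 (SE 0.019) and 0.78 (SE 0.027), and Aldoc one of 0.49 (SE 0.016), as each fell in frontal cortex and rose in cerebellum. S100b moved in the reverse sense, with −0.32 (SE 0.026). The differences for Gja1, Aldh1l1 and Aqp4 were 0.22 (SE 0.021), 0.14 (SE 0.041) and 0.073 (SE 0.022). Adjusted p-values in the quasi-likelihood test of edgeR ranged from 1.69e-21 for Slc1a3 to 0.00773 for Aqp4. All 10 were called, where 48% of the genes tested were called, and the difference for Gdf10 alone of the 10 exceeded 2-fold with an adjusted p under 0.01, beside 9.4% of the genes tested.

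Setting the Bergmann glia genes against the astrocyte genes gave a single value per library, the mean log2(CPM + 1) of the former 3 minus that of the latter 7. In Ctrl cerebellum it was 0.44, 0.43, 0.44 and 0.46, and in Upf3b-KO cerebellum −0.74, −0.73 and −0.76. The value was lower in each Upf3b-KO library than in any Ctrl library, and the group means were 0.44 ± 0.014 (SD, n = 4) and −0.74 ± 0.015 (SD, n = 3), a difference of −1.18. In frontal cortex the value was −1.52, −1.50, −1.48 and −1.55 in Ctrl and −1.86, −1.88, −1.83 and −1.86 in Upf3b-KO, with means of −1.51 ± 0.027 (SD, n = 4) and −1.86 ± 0.024 (SD, n = 4) and a difference of −0.34. With medians over the members in place of means, the differences became −0.68 in cerebellum and −0.56 in frontal cortex. Since CPM is not scaled for length, the 0 of this value and its sign have no meaning of their own, and only differences between groups are read. These values describe the libraries and carry no test, since the members are few and were chosen with earlier results of these data known.

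**Figure D3:**
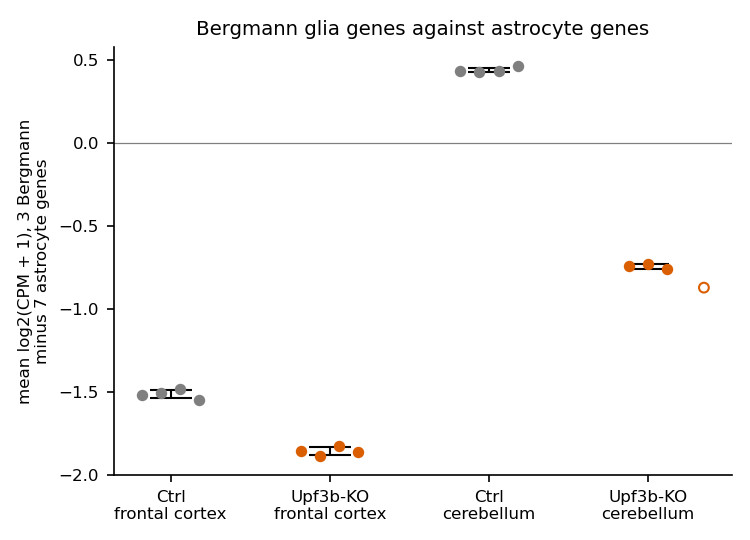
Mean log2(CPM + 1) of the 3 Bergmann glia genes minus that of the 7 astrocyte genes (vertical axis) in each library; bars are mean and SD of the deep libraries, and the open circle is the shallow library. In each region the deep Upf3b-KO libraries lie below the Ctrl libraries, with a wider gap in cerebellum. The position of 0 has no meaning of its own.

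Between the regions of Upf3b-KO mice, Gdf10 remained higher in cerebellum, at 97.3 ± 2.5 CPM (SD, n = 3) against 10.4 ± 0.55 CPM (SD, n = 4) in frontal cortex, but by 9.27-fold. For Slc1a3 the difference was 1.19-fold, and for Hopx 2.01-fold. S100b, Aqp4 and Aldoc were 3.86-fold, 2.43-fold and 2.08-fold higher in cerebellum, whereas Slc1a2 and Gfap were 2.49-fold and 1.44-fold lower. Gja1 and Aldh1l1 hardly differed, with log2 differences of −0.032 (SE 0.013) and −0.081 (SE 0.028) and ranges that overlapped between the regions. Their adjusted p-values were 0.041 and 0.0145 in the quasi-likelihood test of edgeR, and both calls were lost when Upf3b-KO cerebellum library 2 or 4 was left out, that of Gja1 also without library 3 or without frontal cortex Upf3b-KO library 2 or 4. All 10 members were called, beside 71% of the genes tested. This comparison uses the same Upf3b-KO libraries as those between genotypes, so the 2 are not independent.

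A wider list of 13 other genes of Bergmann glia was read beside the members. In cerebellum 11 of the 13 were lower in Upf3b-KO and 2 higher (all genes: 31.3% lower, 33.1% higher), with a list median log2 fold change of −0.72. The AMPA receptor subunit genes Gria1 and Gria4, which neurons also express, fell, with log2 fold changes of −1.30 (SE 0.015) and −0.86 (SE 0.014). Timp4, an inhibitor of metalloproteinases, had 376 to 385 CPM in Ctrl and 187 to 194 CPM in Upf3b-KO, and Gpr37l1, a receptor of astroglia, had 817 to 845 and 584 to 595 CPM. Their log2 fold changes were −1.06 (SE 0.019) and −0.55 (SE 0.015), and none of these ranges overlapped. The 2 genes that were higher were Fabp7, a fatty acid binding protein of radial glia, at 0.56 (SE 0.047), and Ptch1, the hedgehog receptor, at 0.062 (SE 0.026). In frontal cortex 5 of 12 tested were lower, 4 higher and 3 not called (all genes: 25.3% lower, 28% higher), with a list median of −0.041. The smallest adjusted p-values there were those of Gria1, A2m, Septin4 and Gpr37l1, with log2 fold changes of −0.49 (SE 0.013), 3.40 (SE 0.1), 0.38 (SE 0.021) and −0.26 (SE 0.018). A2m, a plasma protease inhibitor, had 1.30 to 1.59 CPM in Ctrl and 15.3 to 17.0 CPM in Upf3b-KO frontal cortex, but 161 to 173 CPM in Ctrl and a mean of 105 CPM in Upf3b-KO cerebellum, so it rose in one region and fell in the other.

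Of the wider list of 25 general astrocyte genes, 16 were higher, 8 lower and 1 not called in cerebellum, with a median log2 fold change of 0.19. Of all genes tested there, 33.1% were higher and 31.3% lower. Kcnj10, the inward rectifier potassium channel of astrocytes, had 38.6 to 40.0 CPM in Ctrl and 97.5 to 103 CPM in Upf3b-KO, a log2 fold change of 1.30 (SE 0.033). Slc7a10, a carrier of D-serine, had 44.0 to 46.8 CPM in Ctrl and 99.6 to 103 CPM in Upf3b-KO, a log2 fold change of 1.11 (SE 0.032). Ndrg2 fell, with a log2 fold change of −0.38 (SE 0.011). In frontal cortex 16 of the 25 were lower, 4 higher and 5 not called (all genes: 25.3% lower, 28% higher), with a list median of −0.20. Ndrg2, Sparcl1, S1pr1 and Clu had the smallest adjusted p-values, with log2 fold changes of −0.48 (SE 0.011), −0.29 (SE 0.0087), −0.46 (SE 0.017) and −0.26 (SE 0.012). The wider astrocyte list therefore lay to the same side as the 7 members in frontal cortex. In cerebellum both held risers and fallers, but their medians had opposite signs, 0.19 for the wider list and −0.081 for the 7 members.

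Among 5 astrocyte genes that differ between brain regions, 4 rose and 1 fell in Upf3b-KO cerebellum, and 1 rose and 4 fell in frontal cortex. Over all genes tested, 33.1% rose and 31.3% fell in cerebellum, and 28% rose and 25.3% fell in frontal cortex. Slc6a11, a GABA transporter that is scarce in cerebellar cortex, had 68.1 to 71.8 CPM in Ctrl and 412 to 419.7 CPM in Upf3b-KO cerebellum, a log2 fold change of 2.53 (SE 0.022) whose adjusted p was 6.86e-24 in the quasi-likelihood test of edgeR. It stood at 235 to 248 CPM in Ctrl and 183 to 199 CPM in Upf3b-KO frontal cortex. The glycine transporter Slc6a9, abundant in brainstem, rose in both regions, with log2 fold changes of 0.90 (SE 0.022) in cerebellum and 0.74 (SE 0.046) in frontal cortex. Lhx2, a transcription factor of the forebrain, was at 0 in all 4 Ctrl libraries of cerebellum, where 3 counts would correspond to 0.0868 to 0.108 CPM, and at 0.880 to 1.12 CPM in Upf3b-KO. Agt, the precursor of angiotensin, rose in cerebellum (0.21, SE 0.032) and fell in frontal cortex (−1.25, SE 0.057).

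Genes of reactive astrocytes, the state seen after injury, gave no common direction. Of 18, 5 rose, 5 fell and 8 were not called in cerebellum, and 3 rose, 3 fell and 10 were not called of the 16 tested in frontal cortex, beside 33.1% higher and 31.3% lower of all genes in cerebellum and 28% and 25.3% in frontal cortex. Serpina3n had 1.39 to 2.01 CPM in Ctrl and 17.6 to 18.2 CPM in Upf3b-KO cerebellum, and Hspb1 3.95 to 4.75 and 9.84 to 11.2 CPM. H2-D1 fell there, with a log2 fold change of −0.63 (SE 0.022), and C3, at a mean of 1.38 CPM in Upf3b-KO, rose, with a log2 fold change of 1.38 (SE 0.31). In frontal cortex C4b and Cd44 were lower (log2 fold changes −0.93, SE 0.04 and −0.51, SE 0.092), and Serping1 and Cp were higher (0.47, SE 0.077 and 0.36, SE 0.061).

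**Figure D4:**
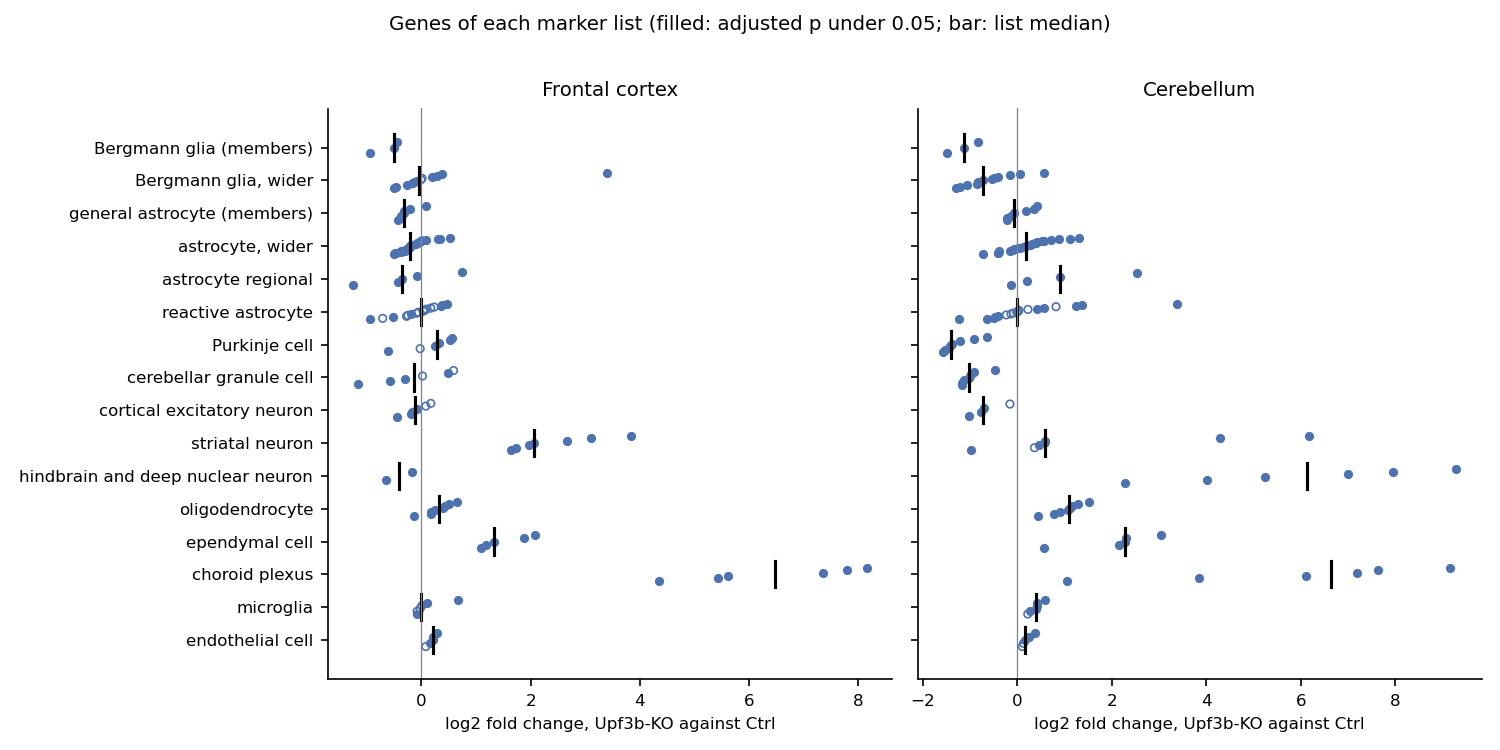
Log2 fold change in Upf3b-KO against Ctrl (horizontal axes) of the genes of each marker list in frontal cortex and cerebellum; filled points had an adjusted p under 0.05, bars are list medians, and Lhx2 is not drawn in cerebellum because its Ctrl libraries were at 0. In cerebellum the medians of the Bergmann glia, Purkinje cell and granule cell lists lie left of 0, and those of the oligodendrocyte, choroid plexus and hindbrain lists right of it.

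Markers of other cell types were counted in the same way. Of all genes tested, 33.1% were higher and 31.3% lower in cerebellum, and 28% and 25.3% in frontal cortex. In cerebellum all 8 Purkinje cell genes and all 8 granule cell genes tested were lower in Upf3b-KO, with medians of −1.40 and −1.01, and the summed level of the Purkinje cell genes was 13739.8 to 13877 CPM in Ctrl and 5694 to 5722 CPM in Upf3b-KO. The summed level of the 3 Bergmann glia genes was 3269.9 to 3293 CPM in Ctrl and 1533 to 1559.9 CPM in Upf3b-KO, and that of the 7 astrocyte genes 4536 to 4623 and 5008 to 5059.6 CPM. Each sum leans on 1 gene, Slc1a3 with means of 2755 and 1297 CPM and Aldoc with 2273 and 2664 CPM. Of the 7 astrocyte genes, 4 fell in cerebellum although their sum was higher. All 8 oligodendrocyte genes rose there, with a median of 1.09 and sums of 6348 to 6466 and 14628 to 14749 CPM. All 6 genes of hindbrain and deep nuclear neurons rose, with sums of 43.8 to 46.8 CPM in Ctrl and 410.0 to 418 CPM in Upf3b-KO. The list is not confined to hindbrain, as it summed to 206 to 214 CPM in Ctrl and 140 to 153 CPM in Upf3b-KO frontal cortex. The 2 of its genes tested in frontal cortex fell. Slc17a6, the glutamate transporter of synaptic vesicles used by those neurons, had 8.71 to 9.76 CPM in Ctrl and 155 to 157 CPM in Upf3b-KO. In frontal cortex all 7 striatal neuron genes rose, with sums of 145 to 157 CPM in Ctrl and 746 to 759 CPM in Upf3b-KO, and 7 of 8 oligodendrocyte genes rose, with sums of 7831 to 7922 and 10497 to 10570.4 CPM. Of the 6 cortical excitatory neuron genes 4 fell there and none rose, with sums of 1533 to 1596 CPM in Ctrl and 1439 to 1454 CPM in Upf3b-KO, and of 6 granule cell genes tested 3 fell and 1 rose. Of 6 Purkinje cell genes tested there, 4 rose and 1 fell. The 5 ependymal genes rose in both regions, to 45.1 to 49.2 CPM in Upf3b-KO frontal cortex and 22.1 to 23.6 CPM in Upf3b-KO cerebellum. Of 6 microglia genes 5 were higher in cerebellum, and in frontal cortex 2 were higher and 1 lower, near the shares of all genes. Of 5 endothelial genes, 3 were higher in cerebellum and 4 in frontal cortex. These lists moved with genotype in the same libraries as the members, and their part in the change of the members was not tested.

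Because UPF3B acts on transcripts, the 61 transcripts of the members in the count matrices, of 223 annotated, were examined for a feature of NMD, the downstream exon junction. The study also used an extended 3′ UTR, a stretch after the stop codon longer than in the main form. That feature was not searched for over all 61 here. Of the 61, 1, Aldh1l1-207, carried the annotated type for nonsense-mediated decay and was also the only one with a downstream exon junction (dEJ), a last exon junction at least 50 nt after the stop codon, among 30 with a defined coding end. The exon that holds its stop codon is 4 bases longer than the matching exon of Aldh1l1-201, the main coding form, and the stop codon ends at base 90546550 of chromosome 6, 1525 nt before the last junction. The last 30 coding bases of these transcripts, and of the pairs of Gfap and Slc1a2 forms with different coding ends, are shown 5′ to 3′ from GRCm39 with the stop codon in capitals.
Aldh1l1-201: cggatcaagactgtgacttttgagtacTGA
Aldh1l1-207: ggagctgcatccgtagatgttgtgaggTGA
Gfap-201: aagcaggagcacaaggacgtggtgatgTGA
Gfap-202: gaaaatggagccctgccagctctccctTAG
Slc1a2-202: gaggaagaaccttggaaacgtgaaaaaTAA
Slc1a2-204: ccattcctggatatcgagacctgcataTGA

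No rise of Aldh1l1-207 was detected in Upf3b-KO. It had 10.1, 17.1, 12.5 and 12.1 CPM in Ctrl and 12.5, 10.9, 7.60 and 10.4 CPM in Upf3b-KO frontal cortex, and 9.82, 8.93, 10.3 and 9.64 CPM in Ctrl and 6.14, 10.6 and 12.1 CPM in Upf3b-KO cerebellum. Genotypes overlapped in both regions, with log2 fold changes of −0.39 (SE 0.2) and −0.011 (SE 0.22) and adjusted p-values of 0.264 and 0.983 in the quasi-likelihood test of edgeR. The 95% interval of the log2 fold change reached −0.85 and 0.067 in frontal cortex and −0.54 and 0.52 in cerebellum. Its mean share of the Aldh1l1 counts was 10% in Ctrl and 10% in Upf3b-KO frontal cortex, and 8.9% and 10% in cerebellum. Aldh1l1-201 held most of the counts, and it fell, with log2 fold changes of −0.38 (SE 0.036) in frontal cortex and −0.21 (SE 0.039) in cerebellum. Reads that fit both forms are divided between them by the counting model, so values of single transcripts are less certain than those of genes.

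Of the 61 transcripts, 16 were at 0 in each of the 15 libraries, and enough counts for a test were found for 28 in frontal cortex and for 29 in cerebellum. In frontal cortex 12 fell, 1 rose and 15 were not called, and in cerebellum 8 fell, 5 rose and 16 were not called, where 16.4% and 22.6% of all transcripts tested were called. Several genes were read almost wholly from 1 form. Gdf10-201 and S100b-201 were the sole transcripts of their genes in the matrices, Slc1a3-201 held 99.7% of the Slc1a3 counts in Ctrl cerebellum, Gja1-201 99.7%, Slc1a2-202 99.5% and Hopx-202 92.3%. Hopx-202 and Hopx-203 both fell in both regions, with log2 fold changes of −0.81 (SE 0.027) and −0.55 (SE 0.12) in cerebellum and −0.93 (SE 0.017) and −1.02 (SE 0.18) in frontal cortex, and Hopx-203 in frontal cortex passed the limits of the study, as did 3.22% of all transcripts tested there. The call of Hopx-203 in cerebellum, with an adjusted p of 0.0193 in edgeR's test, was lost without Upf3b-KO library 2 or 4.

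The 2 coding ends of Gfap, the long one of Gfap-201 and the alternative one of Gfap-202, fell together in frontal cortex (log2 fold changes −0.38, SE 0.023 and −0.20, SE 0.04). In cerebellum Gfap-201 had 149, 152, 149.9 and 145 CPM in Ctrl and 211, 208 and 208 CPM in Upf3b-KO, a log2 fold change of 0.49 (SE 0.021). Gfap-202 had 19.3, 16.7, 16.5 and 19.0 CPM in Ctrl and 19.4, 20.8 and 23.3 CPM in Upf3b-KO, a log2 fold change of 0.24 (SE 0.095) whose adjusted p of 0.127 in edgeR's test missed the threshold, and whether the forms differed from each other was not tested. The main Aldoc forms rose in cerebellum, with log2 fold changes of 0.41 (SE 0.036) for Aldoc-201 and 0.20 (SE 0.013) for Aldoc-202. The 3′ UTR of Aldoc-201 spans 1427 nt, against 406 nt in Aldoc-202, the form with most of the counts, so Aldoc-201 carries an extended one. In frontal cortex Aldoc-201 fell, with a log2 fold change of −0.32 (SE 0.031), as did Aldoc-202 with −0.30 (SE 0.012). Neither form passed the limits of the study in either region. Aqp4-212, with 85.1% of the Aqp4 counts in Ctrl frontal cortex, fell there (−0.19, SE 0.03) and was not called in cerebellum (−0.067, SE 0.032).

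A few rare transcripts were called near the threshold. Slc1a2-204, whose coding region ends at another site than that of Slc1a2-202, had 2.43, 1.53, 1.53 and 1.20 CPM in Ctrl and 4.26, 5.76 and 2.48 CPM in Upf3b-KO cerebellum, a log2 fold change of 1.31 (SE 0.37) whose adjusted p was 0.0418 in the quasi-likelihood test of edgeR. In frontal cortex it had 6.22, 5.31, 6.10 and 0.061 CPM in Ctrl and 6.76, 7.39, 4.96 and 7.03 CPM in Upf3b-KO, so that 1 Ctrl library lay near 0 and the genotypes overlapped. Slc1a3-202, annotated as a retained intron, had 5.18, 3.67, 4.58 and 7.08 CPM in Ctrl and 2.49, 2.80 and 2.37 CPM in Upf3b-KO, a log2 fold change of −1.01 (SE 0.25) with an adjusted p of 0.0289 in the same edgeR test, and thus fell alongside the coding form of the gene. Slc1a3-207, with no defined coding region, had a mean of 2.09 CPM in Ctrl cerebellum and a log2 fold change there of −1.69 (SE 0.48), with an adjusted p of 0.0449 in that test. Neither Slc1a3-202 nor Slc1a3-207 was called in frontal cortex. The call of Slc1a2-204 was lost on leaving out any 1 of 5 of the 7 libraries and that of Slc1a3-207 for 6 of the 7, and that of Slc1a3-202 without Ctrl library 1 or any 1 of the Upf3b-KO libraries.

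**Figure D5:**
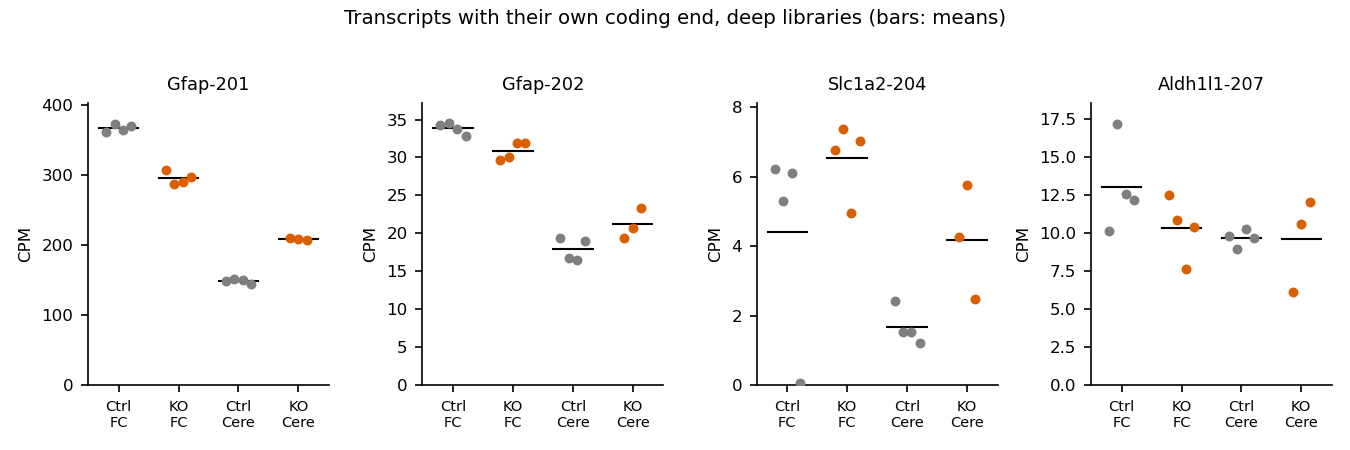
Level in CPM (vertical axes, from 0) of Gfap-201, Gfap-202, Slc1a2-204 and Aldh1l1-207 in each deep library of frontal cortex (FC) and cerebellum (Cere); bars are group means. Gfap-201 separates by genotype in both regions, and Aldh1l1-207, the transcript annotated for decay, overlaps in both.

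The genes whose log2(CPM + 1) followed that of Gdf10 most closely over the 15 libraries, among 11938 genes compared, were Hpcal1, Dner, Slc38a1, Atp2a2 and Lurap1, with Pearson's r from 0.998 to 0.9996 as a measure of likeness. The libraries fall into 4 groups, so this likeness rests on the 4 group means and carries no test. Hpcal1 had a mean of 337 CPM in Ctrl and 155 CPM in Upf3b-KO cerebellum, and 36.4 and 29.1 CPM in frontal cortex. Dner, which encodes a Notch ligand made by Purkinje cells, had means of 1191 and 641 CPM in Ctrl and Upf3b-KO cerebellum, and Atp2a2, the calcium pump of the endoplasmic reticulum, 1832 and 1321 CPM. Each of the 5 was, like Gdf10, highest in Ctrl cerebellum and lower in Upf3b-KO.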

How the data were processed

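The 16 libraries, 4 for each region and genotype, were grouped by their labels. The authors depleted ribosomal RNA, made SMART-Seq v4 PLUS libraries, aligned read pairs to GRCm39 (STAR 2.5.2b) and deposited RSEM expected counts per Ensembl transcript, not scaled for depth or length. RSEM divides reads shared by transcripts, and whether strand was used is not given in the sources used here. Antisense or overlapping genes of Hopx, Slc1a2 and Aldh1l1 each had group means under 1 CPM.

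Of 142435 transcripts, 141102 matched GENCODE vM39 by identifier, which held 99.3% to 99.4% of the counts, and gene values are their sums. Counts were rounded and tested in R 4.3.3 with edgeR 4.0.16 and limma 3.58.1: filterByExpr (minimum count 10, minimum total 15), TMM scaling and the quasi-likelihood test, adjusted over all features tested after Benjamini and Hochberg. A feature was called at an adjusted p under 0.05, and calls at an adjusted p under 0.01 with over 2-fold change were counted beside it. SE is the absolute log2 fold change over the square root of F. Where a coding end was annotated, a dEJ needed 50 nt from stop codon to last junction. The deep libraries gave 3 counts a value of 0.0851 to 0.108 CPM, and this floor covers counting error only.

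The 10 members are all named, as are transcripts that were called (up to 3 per gene, by level, plus called decay or retained-intron forms), the 4 genes of each wider list with the smallest adjusted p, and the 5 genes most like Gdf10. A gene that this rule would name is not reported here. Other markers were named after their values were seen. The members and gene lists were chosen with earlier results of these data known, and the lists overlap in the cell types that express them.

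The 21 pairs of replicate libraries differed by 2.19 to 2.81 times counting noise (gene counts), so none was counted as a duplicate, but they were close, with Pearson's r of log2(CPM + 1) up to 0.998. The regions were described as coming from 4 mice per genotype, but the labels give replicate numbers only and tie no library to a mouse or say whether RNA was pooled. SDs and p-values therefore measure the spread between libraries, which may be technical. On simulated counts with 200 changed genes, the fits recovered 199 in frontal cortex and 199 in cerebellum, with 5 and 12 false calls, among 17953 and 17406 genes, and for transcripts 139 and 125 of 200, with 7 and 6 false calls, among 39823 and 41637. The planted changes were of 2-fold or more and lay in well-counted features only. Most changes of the members were smaller, so the recovery does not speak for them or for rare transcripts. The alternatives were DESeq2 1.42.0, median-of-ratios scaling, library totals, no filter, a minimum count of 50, a replicate block, the shallow library, one fit of all 15 libraries, another pseudocount (0.1 CPM), medians over members and leaving out each library. No protein sequences were used here.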

Additional observations from a re-analysis of the deposited data

Results flagged for a closer look

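Among 30 sets of 4 libraries tested for a sample far from the others, 1 stood out, where chance flags about 1 in 20. Aldoc in Upf3b-KO frontal cortex read 1284 CPM in library 1 against 1264 to 1265 CPM in the other 3, a gap of 0.989 of the whole range. The gap was small beside the difference from Ctrl.

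The effect of genotype differed between the regions for each of the 10 genes by the interaction test in edgeR. Cerebellum minus frontal cortex, the log2 differences were −1.04 for Gdf10, −0.64 for Slc1a3 and −0.32 for S100b, and 0.11 for Hopx, 0.78 for Slc1a2, 0.073 for Aqp4, 0.78 for Gfap, 0.22 for Gja1, 0.14 for Aldh1l1 and 0.49 for Aldoc. In 4 of these genes, Slc1a2, Gfap, Aldoc and S100b, the effect changed sign between the regions, and in the other 6 it was a fall in both.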

How the results depend on the processing

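No result reversed under any alternative. With the limits of the study, the members called were 0 in frontal cortex and 2 in cerebellum, with 1 and 2 transcripts, 5 and 6 genes between the regions in Ctrl and Upf3b-KO, and 1 in the interaction, and over all features 1861, 2339, 1362, 2113, 4402, 4298 and 1864. With the shallow library the transcripts called in cerebellum were 6 (all transcripts: 4031), and the Bergmann minus astrocyte difference was −1.22. Medians over members moved it to −0.68 in cerebellum and −0.56 in frontal cortex. Leaving out 1 library at a time gave 10 member genes in each region, 13 to 14 and 9 to 12 transcripts, 10 and 8 to 10 genes between regions, 10 in the interaction, and differences of −1.19 to −1.18 and −0.36 to −0.33. Over all features the same fits called 9220 to 9475 genes in frontal cortex and 10790 to 11182 in cerebellum, 5483 to 5897 and 7755 to 8966 transcripts, 13174 to 13370 and 13001 to 13147 genes between regions in Ctrl and Upf3b-KO, and 9070 to 9333 in the interaction.

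The replicate numbers did not pair the libraries (correlations of deviations from −0.107 to 0.12). With a replicate block, 10 member genes stayed called in each region, beside 9529 and 10954 of all genes, 9 between regions in Upf3b-KO, beside 12912 of all genes, and 11 and 9 transcripts, and over all transcripts the calls fell to 4213 in frontal cortex, against 6920 without the block, and to 5165 in cerebellum, against 10028. The call of Gja1 between regions of Upf3b-KO was lost under 4 alternatives other than leaving out a library and the limits of the study. Among pairs of an alternative and a member gene or transcript called in the main fit, 1134 kept the call and 106 lost it. Transcripts that gained a call under an alternative were not counted in these pairs. The transcripts whose calls were lost most often, Slc1a2-204 and Slc1a3-207, had a few CPM.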
